A study of Rattus norvegicus with 10 samples.

Results

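The comparison described here set cultured soleus myoblasts taken from rats after 7 days of hindlimb suspension (HS7, 2 libraries) against those taken after 1 day (HS1, 2 libraries). These 4 libraries were picked by their labels out of 10 in the series, whose other groups were an unsuspended Control, HS3 and HS14, with 2 libraries each. All donors were male Wistar rats 3 months of age, with no genetic change and no drug. In the HS groups the hindlimbs had been held off the floor by the Morey-Holton method, which takes weight off the soleus, a postural muscle of mostly slow fibres. Cells were released from the muscle with collagenase, grown on Geltrex in serum-rich growth medium, freed of quickly attaching fibro-adipogenic progenitors by pre-plating, cultured for a further day and lysed without differentiation medium. What was measured is therefore poly(A) RNA of cells several days out of the animal, and the sources used here do not state whether a library holds 1 animal or several, so the p-values below measure only the spread between these libraries, which may be technical.

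Satellite cells are the stem cells of skeletal muscle. Once activated they become dividing myoblasts, which later turn on myogenin, leave the cell cycle, fuse through the membrane proteins myomaker and myomixer, and build sarcomeres, the repeating units of thick and thin filaments that contract. Fibro-adipogenic progenitors, the stromal cells of muscle, make much of its extracellular matrix. The question the comparison addresses is how the state of the cultured myoblasts differs between an early and a later stage of unloading.

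The 4 libraries held between 22304805 and 25959230 counts, within the range of the series (20200972 to 28175200), and 3 counts, the smallest number taken as detectable, stood for 0.118 to 0.131 CPM, the count scaled to a common library total. Of 32622 genes, 13077 had enough counts to be tested. A gene was called when its adjusted p (edgeR quasi-likelihood test, Benjamini-Hochberg) was under 0.01 and its log2 fold change, HS7 over HS1, was beyond 1.5 in either direction. The counts carry Ensembl identifiers only, and symbols were known for 748 of the genes tested, all of which the study had called in at least one suspended group against Control. Because those contrasts used these same HS1 and HS7 libraries, the share of named genes called is fixed in part by how the names were obtained.

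In HS7, 504 genes were called higher and 180 lower, which is 3.85% and 1.38% of the genes tested (5.23% in either direction). The median of the higher genes was 2.28 as a log2 fold change, with 334 beyond 4-fold. All 684 called genes had both HS7 libraries on the same side of both HS1 libraries, which a call at these thresholds nearly requires. The median log2 fold change of all genes tested was 0.01. By adjusted p alone, 2282 genes (17.5%) were higher and 2183 (16.7%) lower. Among the 748 genes with a symbol, 275 (36.8%) were called higher and 95 (12.7%) lower, and 314 of the called genes could not be named.

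**Figure D1:**
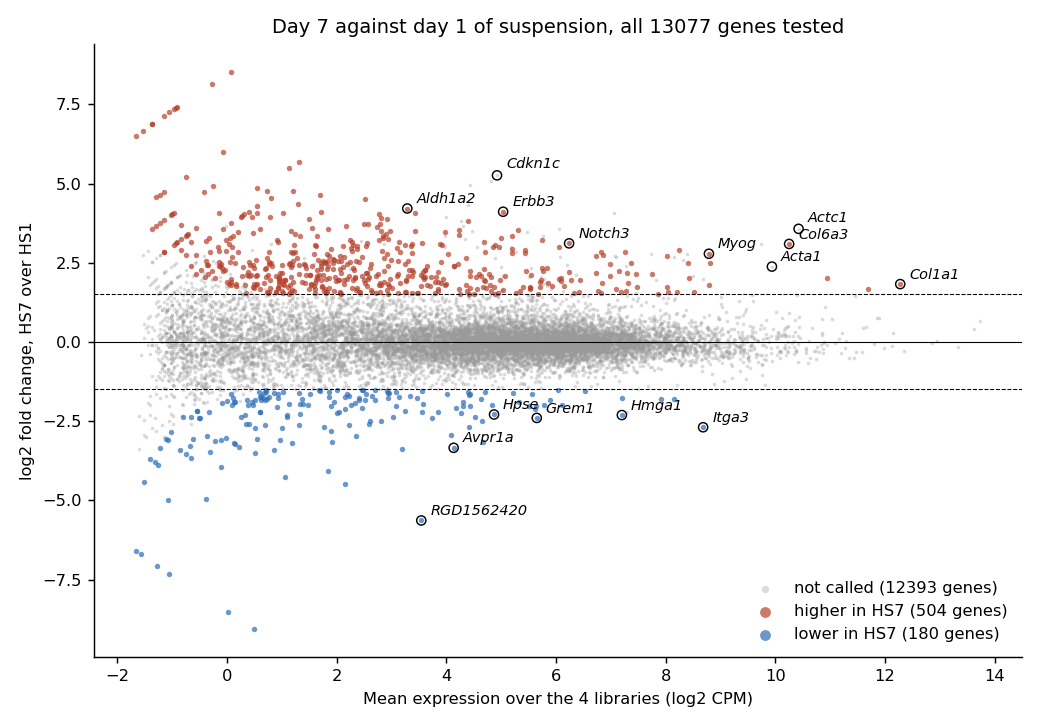
Mean expression (horizontal, log2 CPM over the 4 libraries) against the log2 fold change of HS7 over HS1 (vertical) for the 13077 genes tested, with called genes in colour, dashed lines at 1.5 in both directions and circled genes named in the text. The 504 higher genes outnumber the 180 lower ones, and Actc1 and Acta1, not called in this fit, lie among the called genes by fold change. Points beyond about 6 in either direction are genes at or near 0 counts in one group, whose fitted fold change depends on the prior count.

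The named genes fall into a few groups. Genes of muscle structure had calls in the higher direction only, and extracellular matrix genes had 42 members called higher and 4 lower. Notch3, Dll1 and Heyl of the Notch pathway were higher, while Hmga1 and Hmga2, chromatin proteins of dividing cells, the integrin gene Itga3 and the keratin gene Krt7 were lower. The strip plot of list members shows all lists side by side.

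**Figure D2:**
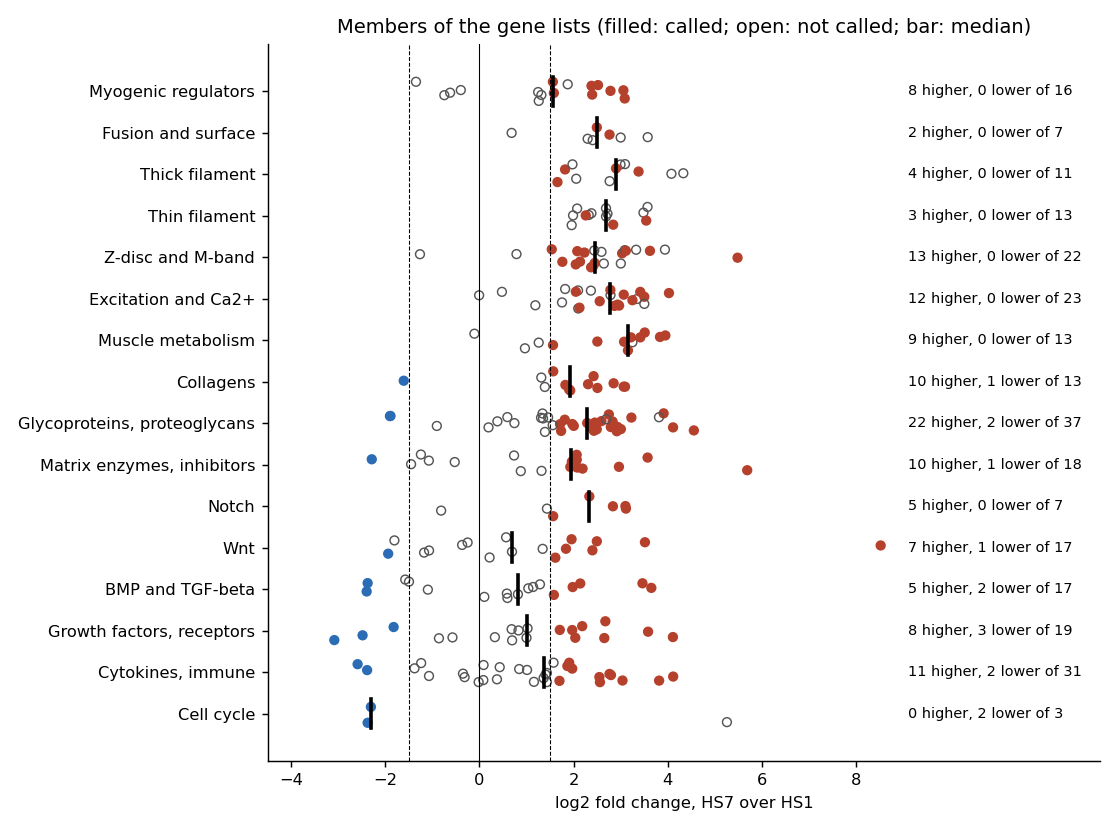
Log2 fold change of HS7 over HS1 (horizontal) of each tested member of 16 gene lists (vertical), red where called higher, blue where called lower and open where not called, with a black bar at the list median and the counts at the right. The medians of the 5 muscle structure and metabolism lists lie between 2.45 and 3.16, and the cell cycle list has 3 members only.

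Myogenin (Myog), the transcription factor that switches myoblasts to differentiation, was at 116 and 107 CPM in the HS1 libraries and at 883 and 669.6 CPM in the HS7 libraries (log2 fold change 2.79 ± 0.14 SE, adjusted p = 1.99e-05). Both HS7 libraries lay far above both HS1 libraries, and the HS7 mean was also above that of Control (238 CPM), HS3 (407 CPM) and HS14 (167 CPM). Of 16 tested members of the list of myogenic regulators, 8 (50%) were called higher and 0 lower, against 36.8% and 12.7% of the genes with a symbol. The median log2 fold change of the list was 1.57, against 1.31 for the genes with a symbol. In the lists of regulators, fusion and surface, metabolism and Notch genes, whose calls were all higher, DESeq2 called 0 lower as well, and at an unadjusted p under 0.05 edgeR gave 2 regulators and 0 of the others as lower.

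Smyd1, a muscle-specific histone methyltransferase and myosin chaperone, was at 2.74 and 3.35 CPM in HS1 and at 33.9 and 18.4 CPM in HS7 (3.09 ± 0.38, adjusted p = 0.00288). Srpk3, a muscle kinase that lies downstream of the factor MEF2, was at 3.68 and 5.05 CPM in HS1 and at 29.5 and 21 CPM in HS7 (2.52 ± 0.20, adjusted p = 2.0e-06). The SRY-box factor genes Sox8 (3.06 ± 0.31) and Sox6 (2.38 ± 0.36) were also called. Musculin (Msc), a repressor of myogenic factors, was called higher (1.56 ± 0.16) beside Myog. Not every regulator in the list had a higher level at day 7. Six2, a homeobox factor, was at 6.66 and 6.05 CPM in HS1 and at 2.27 and 2.76 CPM in HS7 (−1.35 ± 0.24), within the fold threshold. Plagl1, a zinc finger factor, differed by 1.25 ± 0.10 and Sim2, a bHLH-PAS factor, by −0.40 ± 0.09, both short of the fold threshold. Tead4, which binds MCAT elements of muscle genes, had a log2 fold change of 1.88 ± 0.38 with an adjusted p of 0.0473 and was not called.

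The genes of cell fusion pointed the same way. Myomixer (Mymx), the microprotein that completes fusion, was at 3.39 and 4.83 CPM in HS1 and at 32.5 and 23.8 CPM in HS7 (2.76 ± 0.20, adjusted p = 9.91e-07). Myomaker (Mymk), its multipass membrane partner, was at 51.7 and 45.6 CPM in HS1 and at 315 and 207 CPM in HS7, with no overlap, but missed the p threshold (2.41 ± 0.30, adjusted p = 0.0173). The HS7 libraries of this gene differed from each other more than the HS1 libraries did, yet the lower of them was still 4 times the higher HS1 library.

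Lrp4, the agrin coreceptor of the neuromuscular junction, was called (51.8 and 46.9 CPM in HS1, 317 and 246 CPM in HS7, 2.49 ± 0.13, adjusted p = 5.81e-06). The delta subunit of the acetylcholine receptor, Chrnd, was at 7.85 and 8.06 CPM in HS1 and at 83.8 and 45.1 CPM in HS7 (3.00 ± 0.46, adjusted p = 0.0277). Tmem182, a muscle membrane protein, was at 11.4 and 8.97 CPM in HS1 and at 155 and 91.9 CPM in HS7 (3.58 ± 0.43, adjusted p = 0.0184). In both genes the HS7 libraries lay above the HS1 libraries without being called. Fgfr4, the fibroblast growth factor receptor of myoblasts, differed by 0.68 ± 0.08 (69 and 68.5 against 103 and 120.4 CPM). Of 7 tested members of the fusion and surface list, 2 (28.6%) were called higher and 0 lower, against 36.8% and 12.7% of the genes with a symbol.

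The start regions of 4 genes are shown, since these genes were higher in both HS7 libraries and their letters can be read for muscle factor motifs. They come from RefSeq (build GRCr8), run 5′ to 3′ from 250 bases before to 50 bases after the gene start, and have in capitals the E-box CAGCTG, which myogenic bHLH factors such as MYOD and myogenin can bind, the MEF2 site and the CArG box of serum response factor. They were chosen after the search for holding at least 2 such motifs. Srpk3 is at chrX:156661720-156662019 (plus strand), Mymx at chr9:22894274-22894573 (plus strand), Stac3 at chr7:65228225-65228524 (plus strand) and Acta1 at chr19:68784145-68784444 (minus strand).
Srpk3: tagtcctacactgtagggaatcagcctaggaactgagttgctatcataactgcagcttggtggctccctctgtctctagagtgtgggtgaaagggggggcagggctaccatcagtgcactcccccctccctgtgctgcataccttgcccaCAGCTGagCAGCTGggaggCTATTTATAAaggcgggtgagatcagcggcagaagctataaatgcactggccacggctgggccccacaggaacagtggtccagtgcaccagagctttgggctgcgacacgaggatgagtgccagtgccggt
Mymx: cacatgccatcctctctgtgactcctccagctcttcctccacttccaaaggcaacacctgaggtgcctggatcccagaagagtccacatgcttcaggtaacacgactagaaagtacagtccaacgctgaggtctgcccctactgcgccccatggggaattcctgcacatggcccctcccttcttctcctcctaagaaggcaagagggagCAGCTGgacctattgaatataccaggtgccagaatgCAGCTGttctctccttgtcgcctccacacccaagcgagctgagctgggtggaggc
Stac3: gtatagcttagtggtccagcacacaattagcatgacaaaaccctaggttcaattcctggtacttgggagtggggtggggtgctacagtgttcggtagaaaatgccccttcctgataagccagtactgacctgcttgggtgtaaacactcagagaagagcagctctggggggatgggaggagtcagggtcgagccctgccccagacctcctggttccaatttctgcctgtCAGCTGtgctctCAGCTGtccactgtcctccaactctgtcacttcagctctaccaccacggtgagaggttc
Acta1: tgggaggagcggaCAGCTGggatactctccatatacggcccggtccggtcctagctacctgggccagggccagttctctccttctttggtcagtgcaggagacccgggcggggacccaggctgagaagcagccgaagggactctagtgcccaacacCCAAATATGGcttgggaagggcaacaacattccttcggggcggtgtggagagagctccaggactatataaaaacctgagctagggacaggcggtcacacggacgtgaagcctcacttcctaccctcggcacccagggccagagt
The Srpk3 window holds 2 E-boxes that begin 100 and 92 bases before the start and a MEF2 site that begins 81 bases before it. The 2 E-boxes of Mymx begin 41 and 5 bases before the start, and those of Stac3 21 and 9 bases before it. Acta1 has 1 E-box 237 bases and 1 CArG box 94 bases before the start. The 3 motifs are their own reverse complements as patterns, so that 1 search reads both strands, and no motifs overlap in these windows. Of the 69 genes of the contractile and excitation lists, 54 had a start region in the table, and 16 of these (29.6%) held CAGCTG, 7 (13%) a MEF2 site and 4 (7.41%) a CArG box, where all 33469 start regions of the table gave 15.1%, 3.29% and 1.64%. The 51 matched genes of the matrix lists gave 9 (17.6%), 0 and 0. These are matches of letters only, and binding was not measured.

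The structural genes of the sarcomere had the largest summed levels among the muscle lists. Over the 69 tested members of the thick filament, thin filament, Z-disc and M-band, and excitation and calcium lists, the summed level was 2077 and 1872 CPM in HS1 and 15360 and 8964 CPM in HS7. The 2 HS7 libraries thus differed from each other, with replicate 1 the higher for 65 of the 69 genes (median log2 difference 0.76, against 0.03 in HS1). In 67 of 69 genes both HS7 libraries were nevertheless above both HS1 libraries, and the median log2 fold change was 2.64, against 1.31 for the genes with a symbol and 0.01 for all genes tested. How many of all genes tested had no overlap was not counted, so 67 of 69 and the like counts below have no background share.

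Of these 69 genes, 32 (46.4%) were called higher and 0 lower, against 3.85% of all genes tested and 36.8% of the genes with a symbol, from which all list members come, and 32 further genes passed the fold threshold but not the p threshold. DESeq2 also called 0 of them lower, and at an unadjusted p under 0.05 edgeR gave 1 as lower. The number called depends on how the spread is estimated. It was 63 with DESeq2, 64 with all 10 libraries in one fit and 52 with the replicate number as a block, and it was 54 without HS7 replicate 1, 63 without HS7 replicate 2, 18 without HS1 replicate 1 and 16 without HS1 replicate 2. The lone library left in a group is then assumed to vary as the pair in the other group does. The contractile and excitation genes named in the next paragraphs, other than Hspb7 and Atp2a3, kept a positive log2 fold change in all these fits, and the bar plot of calls by fit sets the contractile counts beside those of the matrix.

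**Figure D3:**
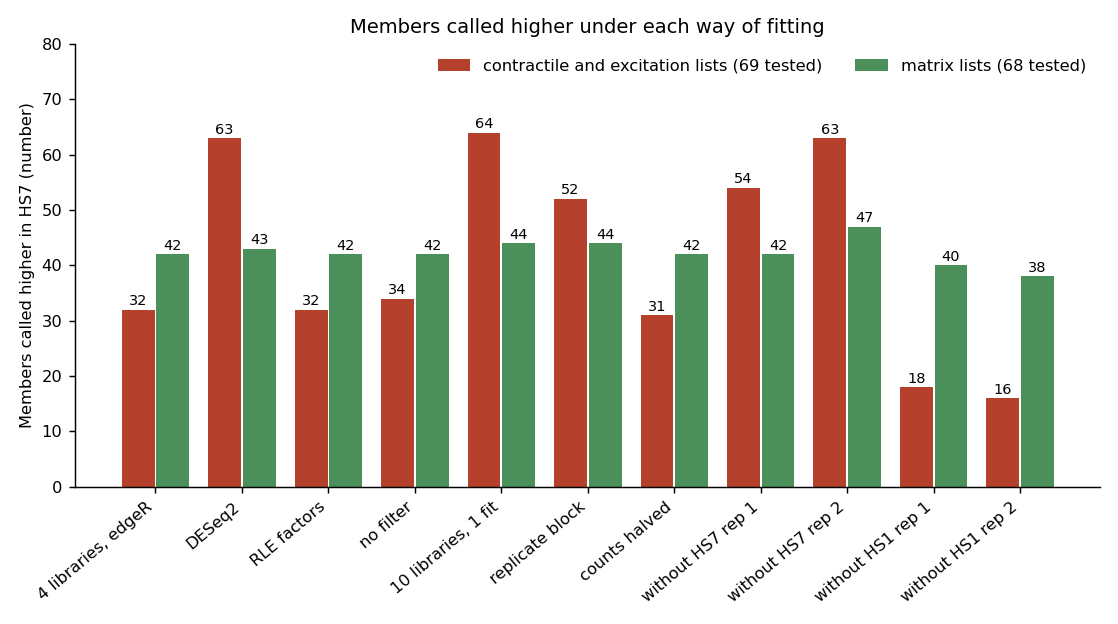
Number of members called higher in HS7 (vertical, starting at 0) under 11 ways of fitting (horizontal), for the 69 tested members of the contractile and excitation lists (red) and the 68 of the matrix lists (green). The contractile count runs from 16 to 64, while the matrix count stays between 38 and 47.

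Thick filament genes had a median log2 fold change of 2.90, and all 11 tested were higher in both HS7 libraries. Of these, 4 (36.4%) were called, near the 36.8% of the genes with a symbol. Embryonic myosin heavy chain, Myh3, was at 194 and 165 CPM in HS1 and at 1989 and 1106 CPM in HS7 (3.09 ± 0.44, adjusted p = 0.0300), and Mybph, a myosin-binding protein, at 16.6 and 12.9 CPM in HS1 and at 326 and 179 CPM in HS7 (4.08 ± 0.51, adjusted p = 0.0235). The light chains Mylpf (166 and 164 CPM in HS1, 837 and 478 CPM in HS7) and Myl4 (55.5 and 53.3 CPM in HS1, 504 and 244 CPM in HS7) missed the threshold as well, with adjusted p of 0.0527 and 0.0524. None of these 4 abundant genes was called in the 4-library fit, although the groups did not overlap in any of them. The called members were less abundant. They included Unc45b, the chaperone that folds myosin heads (10.2 and 9.97 CPM in HS1, 91.8 and 60.9 CPM in HS7, 2.90 ± 0.23, adjusted p = 0.000357), and Myo18b, an unconventional myosin needed for sarcomere assembly (3.39 and 3.05 CPM in HS1, 43.5 and 24.6 CPM in HS7, 3.38 ± 0.37, adjusted p = 0.00225). The slow heavy chain of adult soleus, Myh7, was at 3.60 and 3.31 CPM in HS1 and at 37.9 and 18.1 CPM in HS7 (3.00 ± 0.54, adjusted p = 0.0303). Myosin heavy chains share long stretches of sequence, and how multiply mapped reads were counted is not given, so the division among them is uncertain.

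Thin filament genes had a median of 2.69, and all 13 tested were higher in both HS7 libraries. Of these, 3 (23.1%) were called, below the 36.8% of the genes with a symbol. Cardiac actin, Actc1, the striated actin of early muscle, was at 231 and 193 CPM in HS1 and at 3251 and 1844 CPM in HS7 (3.57 ± 0.44, adjusted p = 0.0228). Over the other fits its log2 fold change ran from 3.11 to 3.92 and its adjusted p from 1.03e-19 without HS7 replicate 1 to 0.183 without HS1 replicate 2. Skeletal actin, Acta1, was at 334 and 294 CPM in HS1 and at 2055 and 1254 CPM in HS7 (2.38 ± 0.35, adjusted p = 0.0307). Reads of the near-identical actins can be divided between these genes in error, and in both the lower HS7 library was more than 3 times the higher HS1 library.

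Troponin T of cardiac and developing muscle, Tnnt2, was at 75.9 and 75.3 CPM in HS1 and at 599.7 and 387 CPM in HS7 (2.69 ± 0.30, adjusted p = 0.0144), and nebulin, Neb, the ruler of the thin filament, was at 161 and 115 CPM in HS1 and at 719 and 457 CPM in HS7 (2.08 ± 0.39, adjusted p = 0.0490). Neither was called, although in both genes the groups did not overlap. Tmod1, the cap of the thin filament's pointed end, was called (6.78 and 5.57 CPM in HS1, 87.9 and 58.2 CPM in HS7, 3.54 ± 0.27, adjusted p = 0.000400), as was fast troponin I, Tnni2 (5.93 and 6.62 CPM in HS1, 51.6 and 39.4 CPM in HS7, 2.84 ± 0.15, adjusted p = 6.52e-09).

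**Figure D4:**
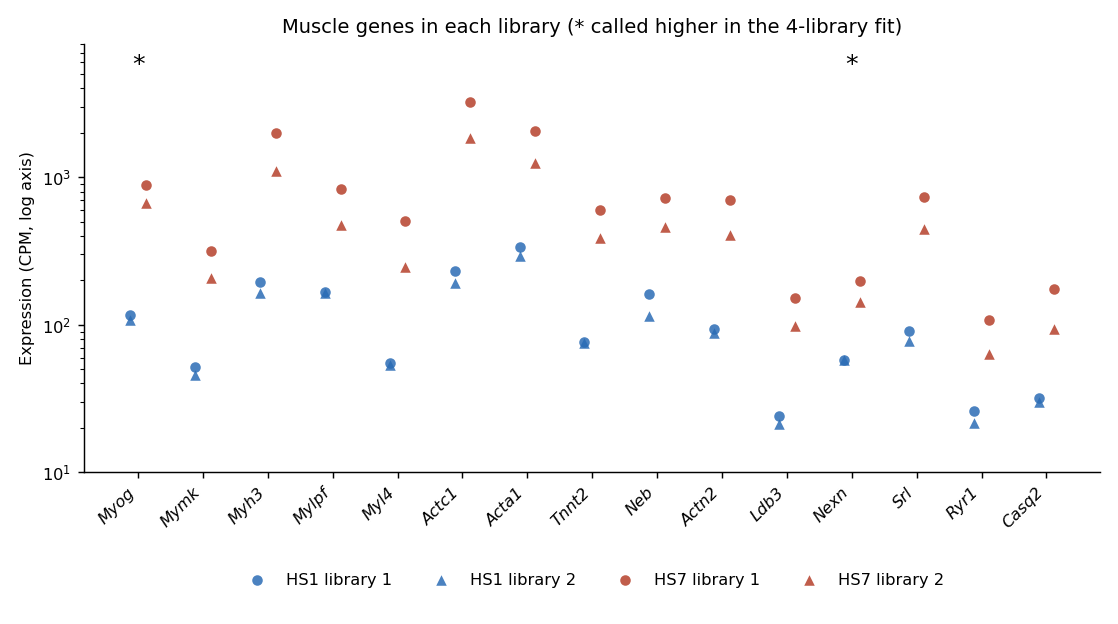
Expression (vertical, CPM on a log axis) of 15 muscle genes in each HS1 library (blue) and HS7 library (red), circles for replicate 1 and triangles for replicate 2, with an asterisk over genes called in the 4-library fit. Both HS7 points lie above both HS1 points in every gene shown, and HS7 replicate 1 lies above HS7 replicate 2 in all 15.

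In the Z-disc and M-band, 13 of 22 tested genes were called higher and 0 lower, with a median of 2.45. Alpha-actinin 2, Actn2, the crosslinker of the Z-disc, was at 93.4 and 87.6 CPM in HS1 and at 696 and 408 CPM in HS7 (2.59 ± 0.38, adjusted p = 0.0314), and its partner Ldb3 at 24.1 and 21.2 CPM in HS1 and at 152 and 97.5 CPM in HS7 (2.44 ± 0.31, adjusted p = 0.0145). Nexn, an actin-binding Z-disc protein, was called (57.9 and 57.8 CPM in HS1, 198 and 142 CPM in HS7, 1.54 ± 0.17, adjusted p = 0.00181), and so was the M-band protein Myom1 (10.1 and 8.67 CPM in HS1, 48.7 and 31.7 CPM in HS7, 2.08 ± 0.23). Sarcospan, Sspn, of the dystrophin complex, had replicates close enough for a firm call (16.1 and 14.3 CPM in HS1, 79.9 and 64.7 CPM in HS7, 2.23 ± 0.12, adjusted p = 5.73e-09). Trim63, the muscle ubiquitin ligase MuRF1 known from atrophy, was at 2.25 and 2.61 CPM in HS1 and at 14.1 and 7.54 CPM in HS7 (2.14 ± 0.30, adjusted p = 0.000155). One member was lower by adjusted p, the small heat shock protein gene Hspb7, at 74.4 and 72.4 CPM in HS1 and at 28.2 and 33.5 CPM in HS7 (−1.26 ± 0.09), within the fold threshold.

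Excitation and calcium handling followed the same course, with 12 of 23 tested members called higher, 0 lower and a median of 2.78. Sarcalumenin, Srl, a calcium-binding protein of the sarcoplasmic reticulum, was at 91.2 and 78 CPM in HS1 and at 733 and 447 CPM in HS7 (2.79 ± 0.37, adjusted p = 0.0249). The calcium release channel Ryr1 (26.1 and 21.7 CPM in HS1, 107 and 63.6 CPM in HS7), the calcium store protein Casq2 (32.0 and 29.8 CPM in HS1, 175 and 93.2 CPM in HS7) and the kinase Camk2b (28.9 and 22.9 CPM in HS1, 110.1 and 66.8 CPM in HS7) had log2 fold changes of 1.82, 2.10 and 1.75 and adjusted p of 0.0480, 0.0632 and 0.0506. As among the filament genes, the abundant members did not overlap between groups and were not called. Called members included Stac3, which couples the voltage sensor to the release channel (1.35 and 1.13 CPM in HS1, 18.6 and 10.0 CPM in HS7, 3.50 ± 0.33, adjusted p = 2.1e-05), and Kcnj12, an inward rectifier potassium channel (1.18 and 1.31 CPM in HS1, 14.6 and 12.4 CPM in HS7, 3.42 ± 0.22, adjusted p = 1.92e-08). Atp2a3, the calcium pump of non-muscle cells, had a log2 fold change of −0.01 ± 0.17.

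Of 13 tested genes of muscle energy metabolism, 9 (69.2%) were called higher and 0 lower, at low levels, against 36.8% and 12.7% of the genes with a symbol. Myoglobin, Mb, the oxygen store of slow muscle, was at 1.72 and 1.74 CPM in HS1 and at 21.5 and 9.75 CPM in HS7 (3.16 ± 0.47, adjusted p = 0.00429). Ampd1, the AMP deaminase of muscle, was at 3.27 and 3.05 CPM in HS1 and at 34.9 and 19.1 CPM in HS7 (3.07 ± 0.37, adjusted p = 0.00215), and Pygm, muscle glycogen phosphorylase, at 4.17 and 5.36 CPM in HS1 and at 17.9 and 10.6 CPM in HS7 (1.56 ± 0.25, adjusted p = 0.000633). Creatine kinase, Ckm, missed the threshold (3.68 and 3.92 CPM in HS1, 50.1 and 23.1 CPM in HS7, 3.25 ± 0.60, adjusted p = 0.0403). The lactate transporter Slc16a3 was at 11.0 and 12.5 CPM in HS1 and at 10.3 and 11.8 CPM in HS7 and had a log2 fold change of −0.11 ± 0.15.

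Several called muscle genes rest on the pair of HS1 libraries. With either HS1 replicate left out, Smyd1, Tmod1, Myo18b, Unc45b, Nexn, Myom1, Trim63, Stac3, Mb, Ampd1, Pygm, and the hemojuvelin and filamin-binding genes Hjv and Filip1 kept their direction but passed the p threshold no longer, with adjusted p from 0.0118 for Stac3 to 0.176 for Mb, which also missed it with halved counts (adjusted p = 0.0157). Myog, Mymx, Srpk3, Lrp4, Sspn, Tnni2 and Kcnj12 were called with any of the 4 libraries left out.

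The levels in the other groups place the muscle genes. Of the 69 contractile and excitation genes, 62 had their highest mean of the 5 groups in HS7 and 33 their lowest in HS1, and 57 had a higher mean in Control than in HS1. Mean HS14 levels were below those of HS7 for all but 1 of the 69, and above HS1 for 39. For Actc1 the group means were 371 CPM in Control, 212 CPM in HS1, 738 CPM in HS3, 2548 CPM in HS7 and 301 CPM in HS14, so the difference lay on the side of HS7.

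Extracellular matrix genes made up the second large group. Of 68 tested, 42 (61.8%) were called higher and 4 (5.88%) lower, against 36.8% and 12.7% of the genes with a symbol and 3.85% and 1.38% of all genes tested, with a median of 1.99, and their summed level was 5190 and 5192 CPM in HS1 and 17550 and 16630 CPM in HS7. The matrix sums, of which Col1a1 made up 7724 and 7848 CPM in HS7, differed less between the HS7 libraries than the contractile sums did. Replicate 1 was still the higher in HS7 for 52 of the 68 genes (median log2 difference 0.24, against 0.005 in HS1). By adjusted p alone, 54 members were higher, where 357 of the 748 genes with a symbol were. The number called stayed between 38 and 47 in all fits at the same thresholds.

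Among collagens, 10 of 13 were called higher and 1 lower. Col1a1, the main fibrillar collagen chain of connective tissue, was at 2172 and 2173 CPM in HS1 and at 7724 and 7848 CPM in HS7 (1.83 ± 0.06, adjusted p = 2.73e-11). Col6a3, a chain of the microfibrillar collagen that surrounds muscle fibres, had the lowest adjusted p of the genes with a symbol (249 and 259.8 CPM in HS1, 2252 and 2135 CPM in HS7, 3.09 ± 0.07, adjusted p = 5.38e-13). The collagen VI chains did not differ by the same amount. Col6a1 was called (150.4 and 146 CPM in HS1, 484 and 405 CPM in HS7, 1.57 ± 0.08), and Col6a2 fell short of the fold threshold (1.39 ± 0.09). Col5a3, a minor fibrillar chain, was at 95.3 and 108 CPM in HS1 and at 651 and 515 CPM in HS7 (2.51 ± 0.12, adjusted p = 2.26e-06). The one called lower was Col4a5, a basement membrane chain, at 58.4 and 53.2 CPM in HS1 and at 19.2 and 17.7 CPM in HS7 (−1.61 ± 0.10, adjusted p = 8.84e-09).

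Glycoproteins and proteoglycans gave 22 called higher and 2 lower of 37. Fbn1, the fibrillin of microfibrils, was at 201 and 188 CPM in HS1 and at 744 and 637 CPM in HS7 (1.81 ± 0.08, adjusted p = 6.33e-10), and thrombospondin 2, Thbs2, a matricellular protein, at 132 and 136 CPM in HS1 and at 654 and 871 CPM in HS7 (2.49 ± 0.15, adjusted p = 5.01e-05). Periostin, Postn, was at 67.3 and 73.0 CPM in HS1 and at 608 and 463 CPM in HS7 (2.92 ± 0.14, adjusted p = 1.27e-05). In all 3 the lower HS7 library exceeded the higher HS1 library more than 3 times. The small leucine-rich proteoglycans did not form a block: lumican (Lum, 3.91 ± 0.28) and decorin (Dcn, 2.83 ± 0.12) were called, whereas biglycan, Bgn, differed by 1.31 ± 0.10 (427 and 460.1 CPM in HS1, 1231 and 990.0 CPM in HS7). Lubricin, Prg4, the lubricant of tendon and joint, was at 29.5 and 30.1 CPM in HS1 and at 214 and 190.5 CPM in HS7 (2.75 ± 0.08, adjusted p = 5.46e-12). Ltbp2, a latent TGF-beta binding protein, was lower by adjusted p, at 870.2 and 826 CPM in HS1 and at 460.0 and 455 CPM in HS7 (−0.91 ± 0.06, adjusted p = 3.87e-08), without reaching the fold threshold. The 2 called lower, Tinagl1 and Efemp1, were at no more than 6.66 CPM, and Efemp1 missed the p threshold with DESeq2 and with any 1 library left out (adjusted p 0.0101 to 0.0354).

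Matrix enzymes and inhibitors gave 10 called higher and 1 lower of 18. The hyaluronan-degrading proteins Cemip (13.5 and 11.8 CPM in HS1, 59.1 and 49.0 CPM in HS7, 2.08 ± 0.12) and Cemip2 (23.0 and 20.0 CPM in HS1, 84.1 and 85.4 CPM in HS7, 1.96 ± 0.09) were both called. Heparanase, Hpse, which cuts heparan sulfate, was at 47.6 and 49.2 CPM in HS1 and at 7.94 and 12 CPM in HS7 (−2.29 ± 0.16, adjusted p = 1.94e-06). The crosslinking enzyme Loxl3 differed by 0.74 ± 0.11. Integrin alpha 8, Itga8, a matrix receptor, was among the 12 largest higher genes of ample level (10.7 and 9.88 CPM in HS1, 99.9 and 93.0 CPM in HS7, 3.21 ± 0.10, adjusted p = 6.88e-12), as was Islr, a secreted protein of mesenchymal cells (4.99 and 8.01 CPM in HS1, 65.9 and 66.9 CPM in HS7, 3.34 ± 0.17).

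For matrix genes the other groups gave another order than for the contractile genes. HS3 held the highest mean of the 5 groups for 39 of the 68 matrix genes, HS7 for 21, and HS1 held the lowest for 52. Control was above HS7 for 34. Fbn1 had group means of 1008 CPM in Control, 194 CPM in HS1, 2353 CPM in HS3, 690.4 CPM in HS7 and 325 CPM in HS14, so HS7 stood between HS1 and Control. Col6a3, at 934 CPM in Control, 1633 CPM in HS3 and 2193 CPM in HS7, was highest in HS7.

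**Figure D5:**
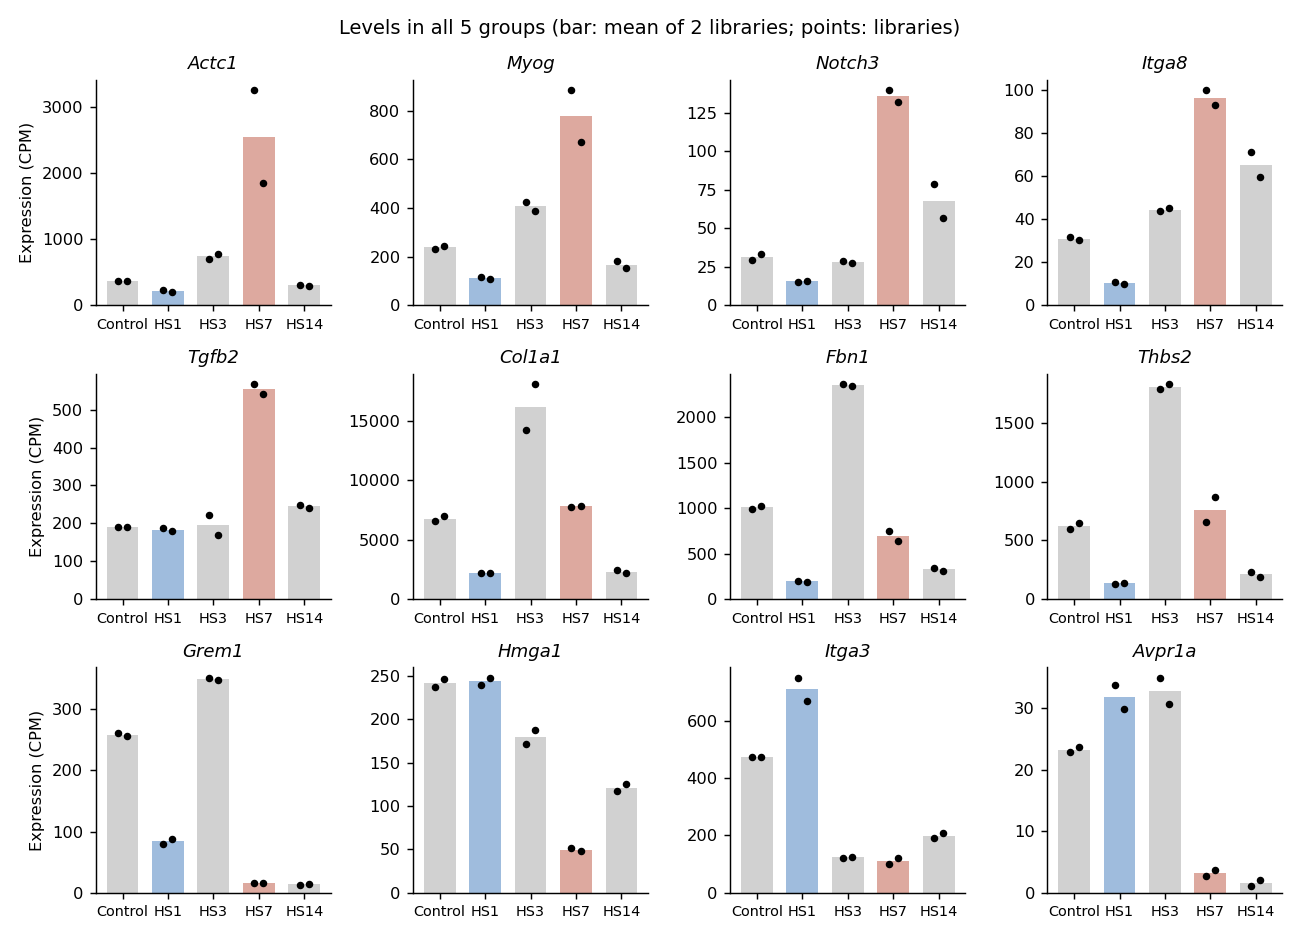
Expression (vertical, CPM, from 0) of 12 genes in the 5 groups (horizontal), with bars for the mean of 2 libraries, points for the libraries, and HS1 in blue and HS7 in red. Actc1, Myog, Notch3, Itga8 and Tgfb2 peak in HS7, Col1a1, Fbn1, Thbs2 and Grem1 peak in HS3, and Hmga1 is lowest in HS7.

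The Notch pathway carries signals between touching cells, from a ligand through a receptor to HES and HEY factors, and keeps satellite cells undifferentiated. The receptor Notch3 was at 15.1 and 15.9 CPM in HS1 and at 140 and 132 CPM in HS7 (3.11 ± 0.08, adjusted p = 3.95e-12), a narrow spread beside the size of the difference. The ligand Dll1 was at 2.37 and 1.83 CPM in HS1 and at 20.0 and 16.7 CPM in HS7 (3.10 ± 0.19, adjusted p = 1.2e-08). Heyl, a target factor of the pathway, was at 25.9 and 29.4 CPM in HS1 and at 204 and 195 CPM in HS7 (2.84 ± 0.08, adjusted p = 5.46e-12). Ligand, receptor and target were thus higher together, each without overlap between groups.

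Notch1, another receptor, passed the p threshold but not the fold threshold (9.89 and 6.18 CPM in HS1, 26.1 and 18.0 CPM in HS7, 1.43 ± 0.27, adjusted p = 0.00608). Dtx4, a ubiquitin ligase of the pathway, was called (2.34 ± 0.22), as was the target factor Hey2 at 1.23 and 0.871 CPM in HS1 and 2.68 and 3.63 CPM in HS7 (1.57 ± 0.36), a call lost without HS1 replicate 2 (adjusted p = 0.0263) or HS7 replicate 2 (adjusted p = 0.0173). The ligand-like protein Dlk1 was at 1.06 and 1.74 CPM in HS1 and at 0.973 and 0.632 CPM in HS7 (−0.81 ± 0.47, adjusted p = 0.165). In all, 5 of 7 tested members (71.4%) were called higher and 0 lower, against 36.8% and 12.7% of the genes with a symbol. Of the 7 members, 6 had their highest mean of the 5 groups in HS7. Notch3 is also a marker of pericytes and vascular smooth muscle, whose other markers are given further on.

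In the BMP and TGF-beta family, 5 of 17 (29.4%) were called higher and 2 lower, with a median of 0.82, below the 1.31 of the genes with a symbol. Tgfb2, a ligand that restrains myoblast differentiation in culture, was at 186 and 180.1 CPM in HS1 and at 567 and 541 CPM in HS7 (1.58 ± 0.06, adjusted p = 1.65e-10). Inha, an inhibin subunit (3.65 ± 0.38), Hjv, the BMP coreceptor hemojuvelin of muscle (2.41 and 2.7 CPM in HS1, 36.6 and 20.5 CPM in HS7, 3.47 ± 0.36, adjusted p = 0.00111), and the receptor Acvrl1 (1.98 ± 0.15) were also called. A secreted BMP antagonist moved the other way. Gremlin 1, Grem1, was at 80.3 and 87.9 CPM in HS1 and at 15.9 and 16.3 CPM in HS7 (−2.40 ± 0.09, adjusted p = 9.21e-11). In Grem1 the HS1 mean of 84.1 CPM was itself below Control (258 CPM) and HS3 (349 CPM), so HS1 was not the high point of the series. Fstl3, a follistatin-like inhibitor of activin, differed by 1.14 ± 0.11 and the coreceptor Eng by 0.58 ± 0.11.

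Wnt proteins guide cell fate and are held in check by secreted inhibitors. Here 7 of 17 tested members (41.2%) were called higher and 1 lower, a share near that of the genes with a symbol. Wif1, a secreted Wnt inhibitor, was at 1.55 and 1.83 CPM in HS1 and at 20.6 and 18.6 CPM in HS7 (3.52 ± 0.18, adjusted p = 1.93e-09). Kremen2, a coreceptor for Dickkopf inhibitors, had 0 counts in both HS1 libraries and 44 and 51 in HS7 (1.78 and 2.01 CPM), at least 15.0-fold higher against the floor of 3 counts per library. Among the ligands, Wnt11 was called higher (3.31 and 4.40 CPM in HS1, 15.9 and 14.3 CPM in HS7, 1.96 ± 0.18), and Wnt10b lower (6.74 and 9.23 CPM in HS1, 1.58 and 2.61 CPM in HS7, −1.94 ± 0.28, adjusted p = 4.87e-05). Wnt5a (1.34 ± 0.16), Wnt4 (−0.25 ± 0.12) and the inhibitor relative Dkk3 (−1.07 ± 0.14) stayed within the fold threshold.

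Of 19 tested growth factors and receptors, 8 (42.1%) were called higher and 3 lower, again near that share. Erbb3, a receptor for neuregulin, was at 3.68 and 3.40 CPM in HS1 and at 73.5 and 50.4 CPM in HS7 (4.11 ± 0.22, adjusted p = 4.73e-06). Igf1 (1.88 and 1.31 CPM in HS1, 7.17 and 5.53 CPM in HS7, 1.97 ± 0.28) and Hgf (1.39 and 1.57 CPM in HS1, 6.12 and 6.16 CPM in HS7, 2.04 ± 0.27), factors that act on satellite cells, were called at low levels. Pdgfb was called as well (0.899 and 1.39 CPM in HS1, 7.29 and 7.5 CPM in HS7, 2.68 ± 0.28), whereas its receptor Pdgfrb differed by 0.83 ± 0.17 (adjusted p = 0.0140). Among the ligands of the EGF receptor, 2 were called lower, and Areg was not called (−0.86 ± 0.60, adjusted p = 0.250), with overlapping groups. Transforming growth factor alpha, Tgfa, was at 10.3 and 10.4 CPM in HS1 and at 2.07 and 1.66 CPM in HS7 (−2.48 ± 0.22, adjusted p = 5.63e-07), and epiregulin, Ereg, at 4.09 and 2.7 CPM in HS1 and at 0.405 and 0.395 CPM in HS7 (−3.09 ± 0.42, adjusted p = 2.65e-05). Igf2 (1.02 ± 0.34) and the binding protein Igfbp4 (0.69 ± 0.08) were not called.

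Cytokines and immune mediators gave 11 called higher (35.5%) and 2 lower of 31, a share near the 36.8% of all genes with a symbol. Il33, an alarmin, was called higher (6.29 and 6.31 CPM in HS1, 27.3 and 19.3 CPM in HS7, 1.87 ± 0.17), while its receptor Il1rl1 was at 338 and 355 CPM in HS1 and at 417 and 327 CPM in HS7 (0.09 ± 0.10, adjusted p = 0.517), with overlapping groups. The neutrophil chemokine Cxcl3 was lower, at 22.5 and 22.0 CPM in HS1 and at 2.92 and 5.64 CPM in HS7 (−2.39 ± 0.25, adjusted p = 6.93e-05), and so was Usp18, a brake of interferon signalling, at 10.3 and 10.2 CPM in HS1 and at 1.34 and 2.09 CPM in HS7 (−2.59 ± 0.24, adjusted p = 8.81e-07). The cyclooxygenase Ptgs1, at 292 and 298 CPM in HS1 and at 108 and 121 CPM in HS7 (−1.38 ± 0.07, adjusted p = 1.86e-09), and Ifitm3, an antiviral membrane protein (1.43 ± 0.09), fell just short of the fold threshold.

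Among the genes called lower in HS7 the most abundant named here was integrin alpha 3, Itga3, part of a laminin receptor, at 748 and 669 CPM in HS1 and at 101 and 120.3 CPM in HS7 (−2.69 ± 0.09, adjusted p = 7.09e-10). Its mean was 473 CPM in Control, 124 CPM in HS3 and 199.6 CPM in HS14, so HS1 was the highest and HS3 already near HS7. RGD1562420, a gene known by a locus name, was at 23.1 and 22.6 CPM in HS1 and at 0.405 and 0.513 CPM in HS7 (−5.64 ± 0.21, adjusted p = 9.21e-11), and its HS3 and HS14 means were 1.01 and 0.627 CPM. In both genes the HS3 mean was near that of HS7, whereas in the next ones it was not.

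Avpr1a, the vasopressin receptor, was at 33.8 and 30.0 CPM in HS1 and at 2.68 and 3.67 CPM in HS7 (−3.34 ± 0.16, adjusted p = 7.09e-10), with 32.8 CPM in HS3 and 1.6 CPM in HS14. Keratin 7, Krt7, an intermediate filament of simple epithelia, was at 44.4 and 47.1 CPM in HS1 and at 6.32 and 4.11 CPM in HS7 (−3.15 ± 0.16, adjusted p = 1.05e-08), with 46.4 CPM in HS3. Both had levels in HS3 like those in HS1. Ntm, a neural adhesion molecule (−3.39 ± 0.21), Cdh3, P-cadherin (−2.70 ± 0.13), and Msln, mesothelin of the mesothelium (39.4 and 46.2 CPM in HS1, 6.08 and 9.16 CPM in HS7, −2.5 ± 0.17), were lower too, each with an HS3 mean between those of HS1 and HS7.

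The cell cycle list could be read for 3 of its 39 genes only, since the others carry no symbol here. Hmga1, a chromatin protein of dividing and undifferentiated cells, was at 240.0 and 248 CPM in HS1 and at 51.2 and 48.3 CPM in HS7 (−2.31 ± 0.07, adjusted p = 6.9e-12). Its relative Hmga2, known for keeping stem cells proliferating, was at 13.1 and 14.3 CPM in HS1 and at 2.84 and 2.49 CPM in HS7 (−2.38 ± 0.19, adjusted p = 1.66e-07). Cdkn1c, the p57 inhibitor of cyclin-dependent kinases, was at 1.06 and 2.0 CPM in HS1 and at 78.4 and 39.9 CPM in HS7 (5.26 ± 0.70, adjusted p = 0.0245). It was not called in the 4-library edgeR fit, was called by DESeq2, with all 10 libraries in one fit and without either HS7 replicate, and had an adjusted p from 1.99e-19 to 0.193 over the fits. Even the lower HS7 library lay far above HS1, and the Control, HS3 and HS14 means were between 5.41 and 8.11 CPM. The Hmga genes have related copies in mammalian genomes whose reads may be shared.

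Other genes with large differences at ample level lie outside these lists. Aldh1a2, which makes retinoic acid, was at 0.817 and 1.13 CPM in HS1 and at 21.6 and 15.0 CPM in HS7 (4.21 ± 0.25, adjusted p = 1.52e-08). Klk1, a tissue kallikrein with near-identical relatives in the rat, was at 0.899 and 1.48 CPM in HS1 and at 24.7 and 15.6 CPM in HS7 (4.07 ± 0.30, adjusted p = 3.92e-06). Filip1, a filamin-binding protein of muscle and brain, was at 2.94 and 2.87 CPM in HS1 and at 42.5 and 26.2 CPM in HS7 (3.54 ± 0.28). Of the genes without a symbol, ENSRNOG00000023227 was the largest higher one with a mean of at least 3 log2 CPM (3.28 ± 0.36) and ENSRNOG00000001825 the largest lower one (−2.93 ± 0.15).

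Markers of cell types were read to check the label of skeletal muscle progenitor cells and to set other cell types beside the results. Of the myoblast markers, 4 of 10 carry a symbol here, and Pax7, Myod1 and Des were not among them. Myog, Chrnd and Fgfr4 were detected in all 4 libraries, as was Msc at 4.70 to 16.0 CPM. These levels do not go against a muscle origin, which was checked on few genes. Myog belongs to the switch to differentiation, so the progenitor state in the label was not checked. The 4 markers summed to 197.2 and 189.3 CPM in HS1 and to 1086 and 849.8 CPM in HS7. The fibro-adipogenic markers given next had larger sums, most of them Col1a1. In bulk RNA, fewer cells of a type and less RNA per cell cannot be told apart.

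Most fibro-adipogenic markers had a positive log2 fold change, and some of them are also members of the matrix lists. Of 15 tested, 4 (26.7%) were called higher (Lum, Dcn, Dpt and Col1a1, all matrix genes themselves) and 2 (13.3%) lower, against 36.8% and 12.7% of the genes with a symbol. The summed level of the 15 was 2498 CPM in both HS1 libraries and 8439 and 8453 CPM in HS7, of which Col1a1 made up 7724 and 7848. Control had a higher mean than HS7 for 10 of the 15, and HS3 had the highest of the 5 groups for 12. The defining receptor gene Pdgfra was at 30.4 and 31.5 CPM in HS1 and at 62.4 and 62.6 CPM in HS7 (1.00 ± 0.08, adjusted p = 3.01e-07). Thy1 was at 160.0 and 157 CPM in HS1 and at 169 and 150.5 CPM in HS7 and overlapped, with an adjusted p of 0.980. Osr1, a transcription factor of these progenitors, was called lower (7.19 and 5.66 CPM in HS1, 1.22 and 0.632 CPM in HS7, −2.81 ± 0.33), and Cd55 too (−1.64 ± 0.23), while Smoc2 differed by 0.74 ± 0.10. By adjusted p alone, 11 of the 15 were higher and 2 lower, where 357 and 135 of the 748 genes with a symbol were. The higher ones included the transcription factors Ebf1 (1.30 ± 0.16), Meox2 (1.26 ± 0.22), Twist2 (0.97 ± 0.21) and Gli1 (1.47 ± 0.33) and the microfibril gene Mfap5 (1.35 ± 0.15). Twist2 did not pass without HS1 replicate 1 or 2 (adjusted p 0.0167 and 0.0139), nor Gli1 without HS7 replicate 2 or HS1 replicate 1 (adjusted p 0.0110 and 0.0457). Most of these markers were thus higher by adjusted p, by unequal amounts. Col1a1, Lum, Dcn, Dpt, Mfap5 and Smoc2 are members of the matrix lists too, so a direction shared with the matrix genes is fixed in part by membership. The part of the markers in the matrix result was not tested.

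The summed level of the endothelial list was 50.7 and 50.2 CPM in HS1 and 77.6 and 61.6 CPM in HS7, most of it Eng, which other cells also express, at 33.6 and 33.1 CPM in HS1 and at 56.5 and 44.4 CPM in HS7. Eng apart, the named markers were at low levels. Cdh5, the cadherin of endothelial junctions, was at 0.163 and 0.0871 CPM in HS1 and at 3.24 and 1.97 CPM in HS7, and Vwf at 0.0817 and 0.174 CPM in HS1 and at 1.26 and 1.89 CPM in HS7. Emcn had 0 counts in both HS1 libraries and 14 and 16 in HS7, at least 4.74-fold higher against the floor, and the receptor Kdr was called too (2.18 ± 0.37). With Tie1, whose call was lost without HS7 replicate 1 (adjusted p = 0.0105), 5 of 11 were called higher, Emcn losing its call without either HS1 replicate (adjusted p 0.0173 and 0.0177). Flt4, a receptor of lymphatic endothelium, was called lower (6.37 and 6.75 CPM in HS1, 1.62 and 1.18 CPM in HS7, −2.24 ± 0.27). The shares of the 11 called higher and lower were 45.5% and 9.09%, against 36.8% and 12.7% of the genes with a symbol. Thbd was at 7.35 and 6.71 CPM in HS1 and at 4.54 and 3.87 CPM in HS7 (−0.76 ± 0.21).

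Of 6 tested mural cell markers, Notch3 and Ednra (0.940 and 1.79 CPM in HS1, 8.31 and 6.79 CPM in HS7, 2.46 ± 0.30) were called higher, and Myocd, the coactivator that drives smooth muscle genes, was called lower, at 9.23 and 7.75 CPM in HS1 and at 0.567 and 0.197 CPM in HS7 (−4.48 ± 0.36, adjusted p = 1.93e-07). Lmod1, a smooth muscle leiomodin, had a log2 fold change of −0.91 ± 0.24. The mural markers beside Notch3 thus did not move as one, and their part in the Notch3 difference was not tested. Of 7 glial markers, 4 (57.1%) were called higher, against 36.8% of the genes with a symbol. Among them were Erbb3, Sox8 and Lgi4 (1.76 and 2.53 CPM in HS1, 14.3 and 16.4 CPM in HS7, 2.83 ± 0.21). The Schwann cell marker S100b was at 2.66 and 2.0 CPM in HS1 and at 6.0 and 6.12 CPM in HS7 (1.36 ± 0.25), and Gldn differed by 1.03 ± 0.14. By adjusted p alone, all 7 glial markers were higher, where 357 of the 748 genes with a symbol were. The part of the glial markers in the Erbb3 and Sox8 differences was not tested.

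Leukocyte markers had a lower summed level in HS7, at 132 and 131 CPM in HS1 against 58.4 and 65.8 CPM in HS7, carried by Spn (97.9 and 97.1 CPM in HS1, 27.6 and 41.1 CPM in HS7, −1.52 ± 0.19) and Cd80 (20.1 and 18.7 CPM in HS1, 4.01 and 4.50 CPM in HS7, −2.20 ± 0.15). Of 11 tested, 1 (9.09%) was called higher and 4 (36.4%) lower, against 36.8% and 12.7% of the genes with a symbol. The list did not move as one, with 6 members positive, 5 negative and a median log2 fold change of 0.58. The Fc receptor gene Fcgr2a had 51 and 39 counts in HS1 and 0 in both HS7 libraries, at least 15.8-fold lower. Spn missed the p threshold without either HS1 replicate (adjusted p 0.0846 and 0.0861), as did Mcpt10 without HS1 replicate 1 (adjusted p = 0.0121). Arhgdib (1.42 ± 0.30) and Apbb1ip (1.15 ± 0.24), both also leukocyte genes, had higher levels in HS7 within the fold threshold.

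Over all called genes, the levels in Control, HS3 and HS14 show where HS7 and HS1 stand in the series. Of the 504 higher genes, 428 had a Control mean between those of HS1 and HS7, and for 325 Control was nearer to HS1. HS3 was nearer to HS7 for 316 of the 504 and above both for 94. Of the 180 lower genes, Control was nearer to HS1 for 150 and HS14 nearer to HS7 for 131. No test was made on these positions, since HS1 and HS7 set both ends of the scale.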

How the data were processed

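Poly(A) RNA of cultured rat soleus myoblasts was sequenced by the study from 10 libraries, of which the HS1 and HS7 libraries (2 each, grouped by their labels) entered the fit. Per the labels and the methods, libraries were made with a stranded kit. The submitters' processing notes name FastQC 0.11.9, STAR 2.7 and featureCounts 1.6.4, and the methods give another STAR version, so which one mapped the reads is unsettled. The processing notes name the build Rnor_6.0 and the methods mRatBN7.2, so the build of the counts is unsettled, and no coordinate of the counts is used. The authors deposited raw, unnormalized counts for 32622 Ensembl genes. Between 69.4% and 71.3% of the counts from 1 to 20 in these 4 libraries were even, and a fit of halved counts was made.

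From these counts, genes were kept by filterByExpr (minimum count 10) and scaled by TMM, and HS7 was compared with HS1 by edgeR's quasi-likelihood test with robust estimation (edgeR 4.0.16, limma 3.58.1, R 4.3.3). P-values of the 13077 genes were adjusted by Benjamini-Hochberg. Errors are standard errors worked back from the test, as the size of the log2 fold change divided by the square root of the F statistic. CPM used TMM factors of all 10 libraries. The alternatives were DESeq2 1.42.0, RLE factors, no filter, a fit of all 10 libraries, a block for the replicate number, halved counts, a log2 fold change beyond 1 and each library left out. On simulated counts with 200 genes changed by 2.5 on the log2 scale, edgeR and DESeq2 each recovered 200 with 0 false calls. The changed genes were drawn from those with ample counts, and every gene was given the same spread. Recovery at low counts, at other fold changes or at a wider or unequal spread between replicates was not tested. In the 4-library edgeR fit, 32 of the 69 contractile and excitation genes passed the fold threshold but not the p threshold. Replicates differed beyond sampling noise (chi-square per degree of freedom 6.25 in HS1 and 12.2 in HS7), so none was counted as a repeat.

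Symbols came from the identifier and symbol columns of the study's table of called genes (770 symbols, 748 tested), and its fold changes and p-values were not used. Named were up to 12 called genes in each direction of the largest log2 fold change with no overlap and a mean level of 3 log2 CPM or more, up to 4 of the most abundant members of each list, and Myog, Mymk, Mymx, Notch1 and Notch3. A few genes that this rule names are not reported here. Other genes named were chosen after their values were seen. The members and gene lists were chosen with earlier results of these data known. No test was run on a list as a whole. The floors cover counting error only and treat each count as separate, which may not hold given the share of even counts. The folds given as at least a value would then be smaller. The errors cover counting error and the fitted spread between these libraries.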

Additional observations from a re-analysis of the deposited data

How the results depend on the processing

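The count of genes called higher in HS7 (504) and lower (180) stayed within 1.5 times under DESeq2 (488 and 144), RLE factors, no filter (557 and 193), all 10 libraries in one fit (580 and 174) and halved counts (470 and 166), and a log2 fold change beyond 1 gave 829 and 376. Leaving out each library in turn gave 384 to 583 higher and 130 to 185 lower genes. DESeq2 shared 432 of its higher and 143 of its lower calls with the edgeR fit. Members of the contractile and excitation lists called higher (32) numbered 63 with DESeq2, 64 with all 10 libraries, 52 with the replicate block and 16 to 63 with a library left out, and 1 member was called lower beyond a log2 fold change of 1. Matrix members ranged from 38 to 47 higher and from 3 to 4 lower with a library left out or in another fit, and were 50 and 6 beyond a log2 fold change of 1.

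Over all genes, same-numbered libraries did not deviate together (r = 0.01 over 13077 genes, a correlation across genes). A value over all genes cannot exclude a shared deviation in a part of them, which was not tested. The contractile and excitation members called higher numbered 52 with the replicate block and 32 without it. The replicate block gave 571 higher and 194 lower genes, of which 501 and 179 were also called without it.

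The sign reversed for Il1rl1 without HS7 replicate 1 (log2 fold change −0.0953 from 0.09, range −0.0953 to 0.248 with a library left out) and for Thy1 (from −0.00), which gave 0.0125 with all 10 libraries, 0.0004 with halved counts, 0.0770 without HS7 replicate 2, 0.0080 without HS1 replicate 1 and a range of −0.0882 to 0.0770 with a library left out. Neither gene was called in any of these fits. Of 73 named genes called higher, 14 and 15 missed the p threshold without HS1 replicate 1 and 2, and of 29 called lower, 3 and 3 did. The cause was not tested. With 2 libraries per group, the spread of a group is estimated from 1 pair, and genes under about 1 CPM rest on few counts.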

Other observations

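Of the called genes with a symbol, 7 had 0 counts in both libraries of one group, among them Kremen2, Emcn and Fcgr2a. Islr2, a relative of Islr, had 39 and 34 counts in HS7 and 0 in HS1, at least 11.5-fold higher against the floor of 3 counts per library. Slc25a48, a mitochondrial carrier gene, had 14 and 18 counts in HS1 and 0 in HS7, at least 5.65-fold lower, the locus LOC100361261 had 46 and 82, at least 22.7-fold lower, and the ribosomal protein pseudogene Rpl38-ps3 had 23 and 16, at least 6.82-fold lower. Reads of a pseudogene can come from its parent gene, so the last value is uncertain.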
